A study of Mus musculus with 24 samples.

Results

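Lens crystallins are the structural proteins of the eye lens, and their transcripts were followed here in RNA of the mouse choroid, the vascular and pigmented layer behind the retina; the study's methods use the name for the complex of pigment epithelium, choroid and sclera. The 10 crystallin genes were chosen by symbol from a table of 56065 genes and were matched to their Ensembl identifiers. They were the α crystallins Cryaa and Cryab, the β crystallins Cryba1, Cryba2, Cryba4, Crybb1, Crybb2 and Crybb3, and the γ crystallins Crygs and Crygc. All 10 passed the filter on low values, a mean of at least 10 normalized counts. The table held 24 libraries in 4 groups: 4 wild type and 4 Ceacam1-/- libraries without laser, and 9 wild type and 7 Ceacam1-/- libraries with laser. Per the labels the laser was set to 6 spots per eye, at a power of 150.0 mW, a spot size of 200.0 µm and a pulse of 100.0 ms. The study used adult littermates of both sexes on a C57BL/6J background, aged 6 to 8 weeks. Ceacam1-/- mice carried a deletion of exons 1 and 2 of Ceacam1, which encodes a cell adhesion molecule, on both alleles, and wild type mice did not. The time between laser and sampling, and the animals behind the laser libraries, are not given in the sources used here. The study counts the samples without laser as mice. For the laser libraries nothing in the sources used here says whether they came from separate mice, so tests that include them measure the spread between these libraries, which may be technical.

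α, β and γ crystallins make up most of the soluble protein of lens fibre cells, where their dense short-range order keeps the lens transparent. The β and γ crystallins share a fold built of Greek key motifs, whereas the α crystallins are small heat shock proteins that hold other proteins in solution. Cryaa is largely a lens gene. Cryab is also abundant in heart and skeletal muscle, and low amounts of several crystallins are known from the retina.

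The 10 genes lie on 6 chromosomes of GRCm39. Cryaa is at chr17:31896781-31900707 on the forward strand and Cryab at chr9:50651859-50668567 on the forward strand. Cryba1 is at chr11:77609441-77616120 and Cryba2 at chr1:74929093-74932302, both on the reverse strand. Cryba4, Crybb1, Crybb2 and Crybb3 lie together on chromosome 5, and the spans of Cryba4 at chr5:112394359-112402226 on the reverse strand and Crybb1 at chr5:112400811-112417965 on the forward strand overlap. Crygs is at chr16:22623953-22630327 and Crygc at chr1:65110684-65112848, both on the reverse strand. The span of Cryab also contains Hspb2, a small heat shock gene on the opposite strand. The main annotated transcripts of Cryba4 and Cryab held no 31-base stretch of Crybb1 or Hspb2, respectively, on either strand. No source used here says that strand entered the estimates. Reads may therefore be shared where other transcripts of these pairs overlap, and their values are uncertain to that extent.

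Crygc sits in the γA to γF gene cluster, whose members are close copies of one another. Over the 6 genes the coding sequences were 79.2% to 98.1% identical, with a median of 82.9% over 15 pairs. Crygs, the γ crystallin of the outer lens, was 58.7% to 59.9% identical to them. The 6 β members were 46.8% to 64.5% identical to each other, and Cryaa and Cryab were 63.0% identical. The first 60 coding bases of the cluster genes are shown as a stretch where Crygc and its neighbours are close. Over the whole coding sequence Crygc was 79.2% to 83.4% identical to the other cluster genes, so this stretch does not stand for all reads. Capitals mark a base that differs from Crygc at the same position.
Crygc: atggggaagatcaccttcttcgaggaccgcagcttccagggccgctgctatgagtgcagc
Crygb: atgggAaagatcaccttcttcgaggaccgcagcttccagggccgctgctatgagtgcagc
Cryga: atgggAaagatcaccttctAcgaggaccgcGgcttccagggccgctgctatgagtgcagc
Crygd: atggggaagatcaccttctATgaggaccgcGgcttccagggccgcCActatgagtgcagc
Cryge: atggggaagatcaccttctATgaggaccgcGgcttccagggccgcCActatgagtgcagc
Crygf: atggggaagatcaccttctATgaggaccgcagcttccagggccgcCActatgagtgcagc
Crygb differed from Crygc at 1 of these 60 positions, and Crygd and Cryge were the same over the stretch. Across the whole Crygc transcript, 26.96% of its 31-base words also occurred in another gene, 191 of them in Crygb. The share was 42.6% for Crygs, through the gene Gm30416 on the opposite strand, 11.3% for Cryaa, 10.4% for Cryab and 6.73% for Crybb1. It was 0.0% for Cryba1, Cryba2, Cryba4, Crybb2 and Crybb3. The estimates of the γ genes could therefore have been split between copies, and those of Crygc, Crygs and the other cluster genes are the least certain.

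Because 9 of the 10 members moved together across libraries, the bases before their transcript starts were searched for 3 short motifs on both strands. TGCTGA is the core recognised by MAF proteins, which drive crystallin genes in the lens, TATAAA is the TATA box, and GAANNTTC is a minimal unit of the heat shock element. Within 250 bases before the start, TGCTGA was found in 7 of 10 members (Cryba1, Cryba2, Cryba4, Crybb1, Crybb3, Crygs and Crygc) and in 14.8% of 21583 protein-coding genes. Of the γ genes outside the 10, Cryga and Crygn held it, and Crygb, Crygd, Cryge and Crygf did not. TATAAA was found in 2 of 10 members, Cryba1 and Crybb1, and in 11.9% of all genes. GAANNTTC was found in Cryab alone among the members, 39 to 32 bases before the start, and in 6.4% of all genes. No 2 of these matches overlapped in the sequences below, which show the matches nearest the start in capitals. They run up to the transcript start except for Cryab, where the last 10 bases were left out because they are exonic in another transcript.
Cryba1, chr11:77616121-77616220, reverse strand: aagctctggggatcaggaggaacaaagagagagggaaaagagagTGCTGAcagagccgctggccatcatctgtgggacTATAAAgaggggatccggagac
Crybb3, chr5:113229451-113229550, reverse strand: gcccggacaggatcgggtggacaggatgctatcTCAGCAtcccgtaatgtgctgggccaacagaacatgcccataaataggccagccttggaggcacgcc
Crygs, chr16:22630328-22630427, reverse strand: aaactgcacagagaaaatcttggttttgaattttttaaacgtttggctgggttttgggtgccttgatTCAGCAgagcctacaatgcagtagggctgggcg
Crygc, chr1:65112849-65112948, reverse strand: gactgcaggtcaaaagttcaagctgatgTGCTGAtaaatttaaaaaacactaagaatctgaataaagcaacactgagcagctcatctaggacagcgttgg
Cryab, chr9:50664087-50664176, forward strand: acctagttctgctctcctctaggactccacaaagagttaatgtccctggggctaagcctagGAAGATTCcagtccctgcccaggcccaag
A match says only that these letters are in the window, and no binding was measured. TCAGCA is TGCTGA read on the other strand.

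Values are normalized counts, that is, estimated reads divided by the authors' factors for library size and transcript length. They summed to between 23704346 and 35094410 per library, and the group medians lay between 25282017 and 26530696. Ceacam1, estimated over the whole gene and not only the deleted exons, checks the labels in part. It was 957.6 to 5026.5 normalized counts in the 4 wild type and 405.0 to 1170.8 in the 4 Ceacam1-/- libraries without laser, a log2 difference of -1.95 (exact permutation p = 0.0571, the smallest possible being 0.0286). With laser it was 773.5 to 8367.1 in wild type and 67.8 to 905.1 in Ceacam1-/-, a log2 difference of -2.17 (exact permutation p = 0.000175). In each setting 1 pair of libraries, of 16 and of 63, had the higher value in Ceacam1-/-.

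Ceacam1-/- laser libraries 14, 15 and 18 stood apart in their tissue markers. Their pigment epithelium list of 10 genes summed to 72690, 56987 and 41809 normalized counts, against 187105 or more in each of the other 21 libraries. Their melanocyte list of 8 genes summed to 11102, 28738 and 10083, against 42889 or more elsewhere. Their photoreceptor list of 16 genes summed to 1167600, 656439 and 1193800, against 10618 to 176066 in Ceacam1-/- laser libraries 4, 5, 6 and 7. Wild type library 21 and Ceacam1-/- library 23, without laser, also had high photoreceptor sums of 641892 and 687497. The main results that include libraries 14, 15 and 18 are also given without them, an alternative chosen after seeing the data.

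Per kilobase of transcript, Cryab stood far above the other members, with a median of 11018.4 normalized counts per kb over 24 libraries. Cryaa followed with a median of 1637.9 per kb, Crybb2 with 1208.9 and Cryba1 with 905.7. The γ crystallins Crygs and Crygc were next, at 615.8 and 436.2 per kb. The lowest medians were 232.3 for Cryba2, 209.6 for Crybb3, 197.6 for Cryba4 and 108.7 for Crybb1. These levels depend on the annotated transcript chosen for each gene, of 1397 bases for Crybb1 and 808 for Cryba4. Not divided by length, the medians of Crybb1 and Cryba4 were 151.9 and 159.6. Within libraries Cryaa was above Crybb2 per kb in 24 of 24 libraries, and Cryab was above Cryaa in 22 of 24. Lower down, Cryba1 was above Crygs in 22 libraries, Crygs above Crygc in 21, Crygc above Cryba2 in 19 and Cryba4 above Crybb1 in 22. The order was less clear between Crybb2 and Cryba1 (18 libraries), Cryba2 and Crybb3 (15) and Crybb3 and Cryba4 (15).

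Cryaa, the lens α crystallin, was low in most choroid libraries without laser and very high in 2 of them. Wild type libraries 21, 22, 26 and 27 held 156, 7643, 71.5 and 329 normalized counts. Ceacam1-/- libraries 23, 24, 25 and 28 held 112, 15726, 49.9 and 119. Library 22 of wild type and library 24 of Ceacam1-/- thus stood apart from the 3 others of their group, and the values of the groups overlapped. With laser, the 9 wild type libraries lay between 776 and 7886 with a median of 2183. The 7 Ceacam1-/- libraries held 1925, 2546, 13463, 4391, 2350 and 6562 in libraries 4, 5, 6, 7, 14 and 15, and 16.5 in library 18. Of the laser libraries, library 18 was the one below all libraries without laser.

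Crybb2, the β crystallin with the highest level per kb, gave the same picture. It was 57.0, 3874, 35.5 and 127 normalized counts in wild type and 41.5, 7088, 17.1 and 35.3 in Ceacam1-/- without laser. With laser it was 355 to 2776 in wild type (median 919) and 721, 979, 4239, 1773, 1017, 3091 and 3.36 in Ceacam1-/- libraries 4, 5, 6, 7, 14, 15 and 18. Again libraries 22 and 24 were high without laser and library 18 was low with it.

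Crygs without laser held 33.6, 1798, 13.8 and 51.5 normalized counts in wild type and 39.0, 3672, 16.7 and 11.3 in Ceacam1-/-. With laser it ranged from 202 to 2017 in wild type (median 495) and from 4.27 to 3220 in Ceacam1-/- (median 779). Crygc without laser held 20.6, 1094, 1.58 and 38.1 in wild type, and 22.3, 1800 and 33.7 in Ceacam1-/- libraries 23, 24 and 28, while library 25 was listed at 0. With laser it ranged from 69.7 to 751 in wild type (median 362) and from 17.6 to 1977 in Ceacam1-/- (median 558). The 2 γ members therefore shared the high and low libraries of Cryaa and Crybb2, and the groups overlapped for both.

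**Figure D1:**
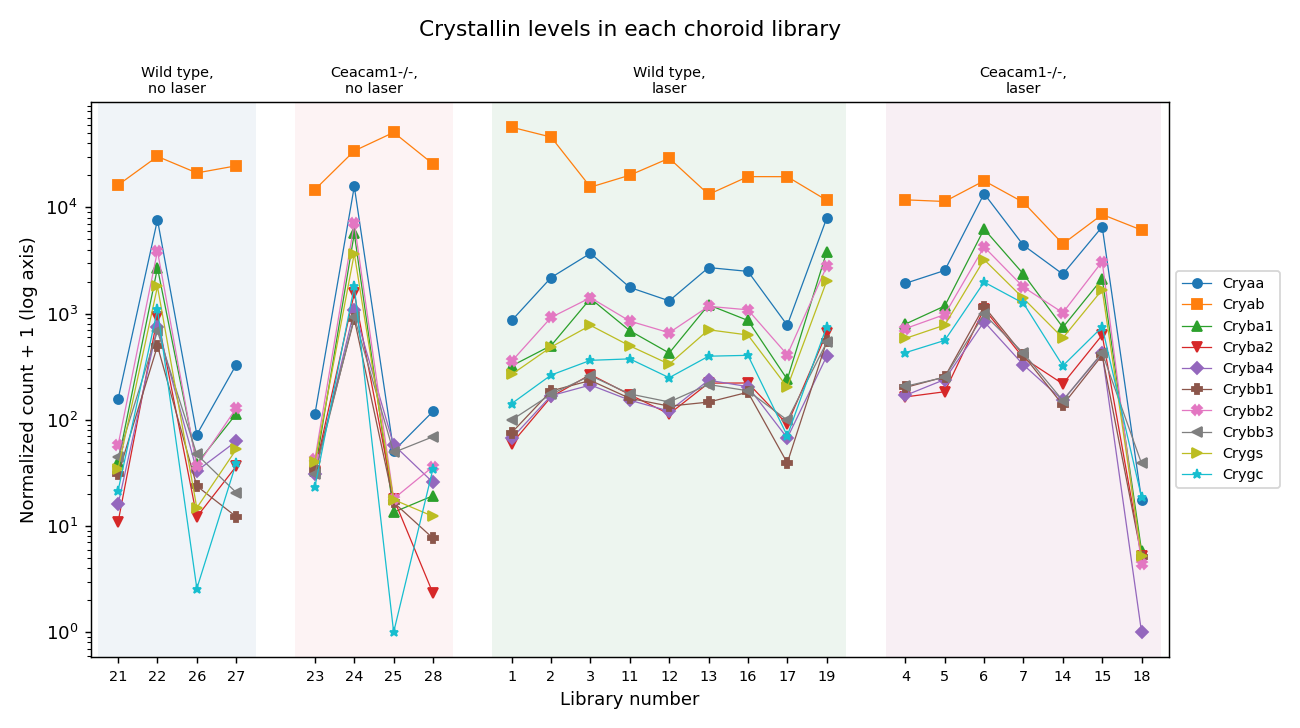
Normalized count plus 1 (vertical log axis) of the 10 crystallins in each of the 24 libraries (horizontal axis, grouped by genotype and laser, with lines joining the points of a gene for the eye alone). Apart from Cryab, the genes rise and fall as 1 bundle, high in libraries 22 and 24 without laser and, among the laser libraries, low in library 18.

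Summed over the 9 members other than Cryab, the normalized counts ran from 92.8 in Ceacam1-/- laser library 18 to 38424 in Ceacam1-/- library 24 without laser, a 414-fold range. The sum exceeded 1000 in 15 of 16 laser libraries and in 2 of 8 libraries without laser, a limit set after the values were seen. Below it lay wild type libraries 27, 21 and 26 (786, 404 and 272), Ceacam1-/- libraries 23, 28 and 25 (372, 319 and 234) and library 18. Just above it were the wild type laser libraries 17 and 1, with 1988 and 2242. The sum was at most 0.147% of all normalized counts of a library, in library 24, and its median share was 0.0195%. In these bulk samples, fewer cells of a type and less RNA per cell cannot be told apart.

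The members kept nearly fixed proportions where they were abundant. Cryaa made up 34.6% to 43.3%, the 6 β members 41.8% to 47.3% and the 2 γ members 13.2% to 20.8% of the summed normalized counts in the 17 libraries above the limit of 1000; these shares are not corrected for length and are compared between libraries. In libraries with low sums the shares scattered more. They were 17.8% for Cryaa, 58.6% for β and 23.6% for γ members in library 18, and 21.3%, 71.6% and 7.13% in library 25. Across 24 libraries, Pearson's r of log2 values over the 36 pairs of the 9 members ranged from 0.761 to 0.996 with a median of 0.929. After the group means were taken off it ranged from 0.800 to 0.997 with a median of 0.944. These correlations describe points that share libraries and depth. For the 9 pairs with Cryab, r ranged from -0.21 to 0.13.

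**Figure D2:**
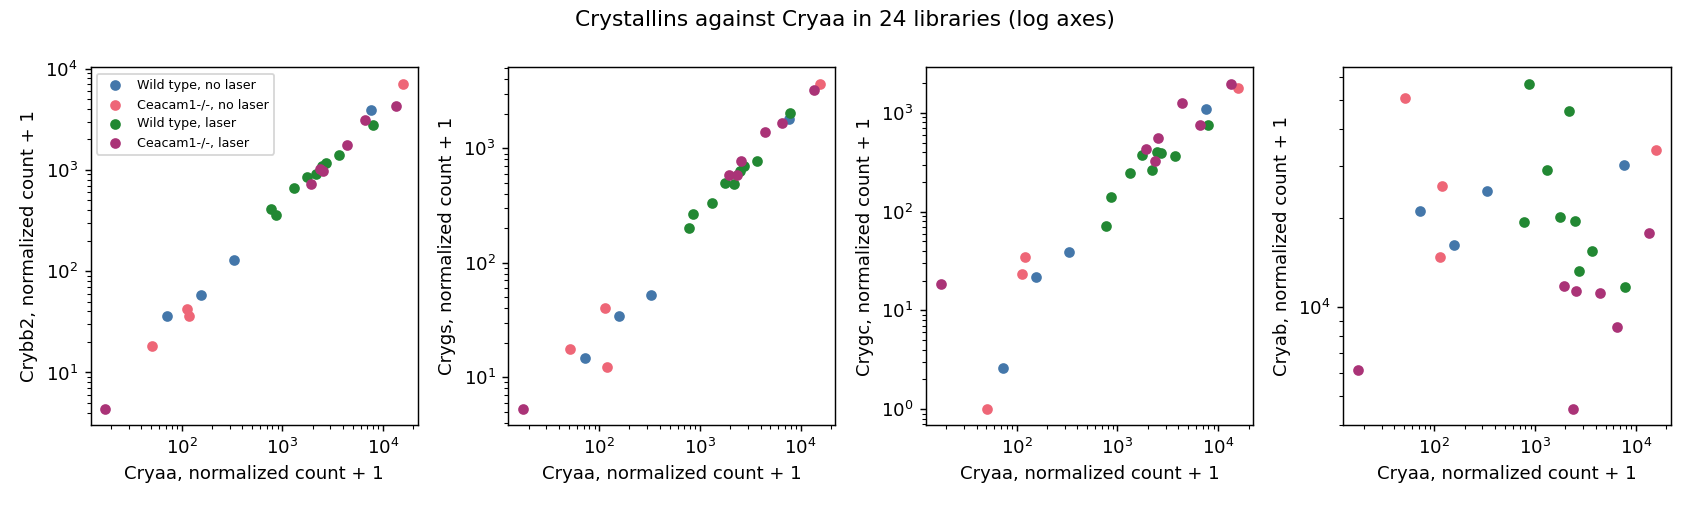
Crybb2, Crygs, Crygc and Cryab against Cryaa, all as normalized count plus 1 on log axes, with 1 point per library (24) coloured by group. The β and γ crystallins follow Cryaa along a line through all 4 groups, and Cryab does not.

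The genotype comparison without laser asks whether crystallin levels differ with loss of CEACAM1 in the choroid at rest. No crystallin differed between 4 Ceacam1-/- and 4 wild type libraries in limma's test adjusted over 20057 genes (0 of 10 members, against 0% of all genes); at an unadjusted p under 0.05 it was 0 of 10, against 1.53% of all genes. The median log2 difference of the 10 members was -0.16, beside -0.02 over all genes. Single libraries decided the direction: the median over the 10 members was 1.14 without wild type library 22 and -2.03 without Ceacam1-/- library 24, and it was 0.12, 0.42 and 0.50 without Ceacam1-/- libraries 23, 25 and 28. Exact permutation p-values of the 10 members lay between 0.429 and 0.971 (smallest possible 0.0286). The deleted Ceacam1 was not called by limma either, with adjusted p of 0.325 or more in 23 alternatives. The study, using DESeq2 with sex as a covariate, did report differentially expressed genes between these genotypes without laser. The lack of a call therefore does not show that the crystallins are unchanged.

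Laser against no laser within wild type gave higher mean log2 values for 9 of 10 members (against 42.1% of all genes), the exception being Cryab, but none passed limma's test adjusted over 19950 genes (0 of 10, against 5.28% of all genes). For each of these 9 members, 9 of 9 laser libraries were above the median of the libraries without laser, and for 0 of 10 did the groups separate with laser higher (against 4.5% of all genes), since library 22 lay within or above the laser range. The log2 difference was 2.32 (SE 1.46, adjusted p = 0.378) for Cryaa and 2.32 (SE 1.52, adjusted p = 0.404) for Crybb2. It was 2.65 (SE 1.45, adjusted p = 0.311) for Crygs and 2.84 (SE 1.45, adjusted p = 0.277) for Crygc. Exact permutation tests of these 4 genes gave unadjusted p = 0.0503, 0.0490, 0.0252 and 0.0322 (smallest possible 0.00140), among 10 members tested. The median over the members was 2.12, beside -0.10 over all genes. Without library 22 that median was 3.54 and still no member passed. On the linear scale the group means hardly differed, Cryaa averaging 2050 without and 2632 with laser, since library 22 carried most of the former.

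In Ceacam1-/- mice the same 9 members again had higher mean log2 values with laser (9 of 10, against 51.2% of all genes), and none of the 9 passed. The log2 difference was 2.53 (SE 1.52, adjusted p = 0.365) for Cryaa and 2.54 (SE 1.59, adjusted p = 0.386) for Crybb2. It was 2.79 (SE 1.51, adjusted p = 0.311) for Crygs and 3.62 (SE 1.51, adjusted p = 0.177) for Crygc. For each of the 9 members 6 of 7 laser libraries were above the median of the libraries without laser, library 18 being the exception. Exact permutation p-values of these 9 ranged from 0.115 to 0.758 (smallest possible 0.00303). The median over the 10 members was 2.42, beside 0.02 over all genes, and ranged from 1.57 without library 28 to 4.24 without library 24. It was 3.42 without libraries 14, 15 and 18, where 0 of 10 members passed, and 0.57 with array weights.

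Averaged over both genotypes, Crygc rose with laser by 3.23 on the log2 scale (SE 1.05, adjusted p = 0.0413). It was the single member called higher of 10, against 7.69% of all genes called higher and 13.9% called in either direction. Crygs (2.72, SE 1.05, adjusted p = 0.0882), Cryaa (2.43, SE 1.05, adjusted p = 0.132) and Crybb2 (2.43, SE 1.10, adjusted p = 0.152) did not pass. At an unadjusted p under 0.05, 9 of 10 members were past the threshold, against 27.4% of all genes: 8 were higher, Cryab was lower, and Cryba4 was not past it. The members other than Cryab moved together across libraries, so this and the other counts of members are not counts of independent genes. The count past the unadjusted threshold was 3 without library 21, 25, 26 or 28, 4 without library 23, and 5 without library 6, 7, 15, 19 or 27. The share of all genes past the unadjusted threshold in these fits is not given here. The count of members called rested on single libraries. It was 8 without Ceacam1-/- library 24 (2171 of 19921 genes called) and 6 without Ceacam1-/- library 18 (3048 of 19899). It was 4 without wild type library 22 (2356 of 19953). It was 2 without wild type laser library 1 (2506 of 19958), where Cryab, which was lower, was the second. Leaving out each of 24 libraries in turn gave no called member in 15 cases, and Crygc, which shares 31-base words with Crygb, kept its call in 6. Without libraries 14, 15 and 18 it was 6 members, with 4829 of 19723 genes called. Without the 3 libraries rich in Krt12, a keratin of the corneal epithelium, an alternative chosen after seeing the data, Crygc kept it (3.96, adjusted p = 0.0226).

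**Figure D3:**
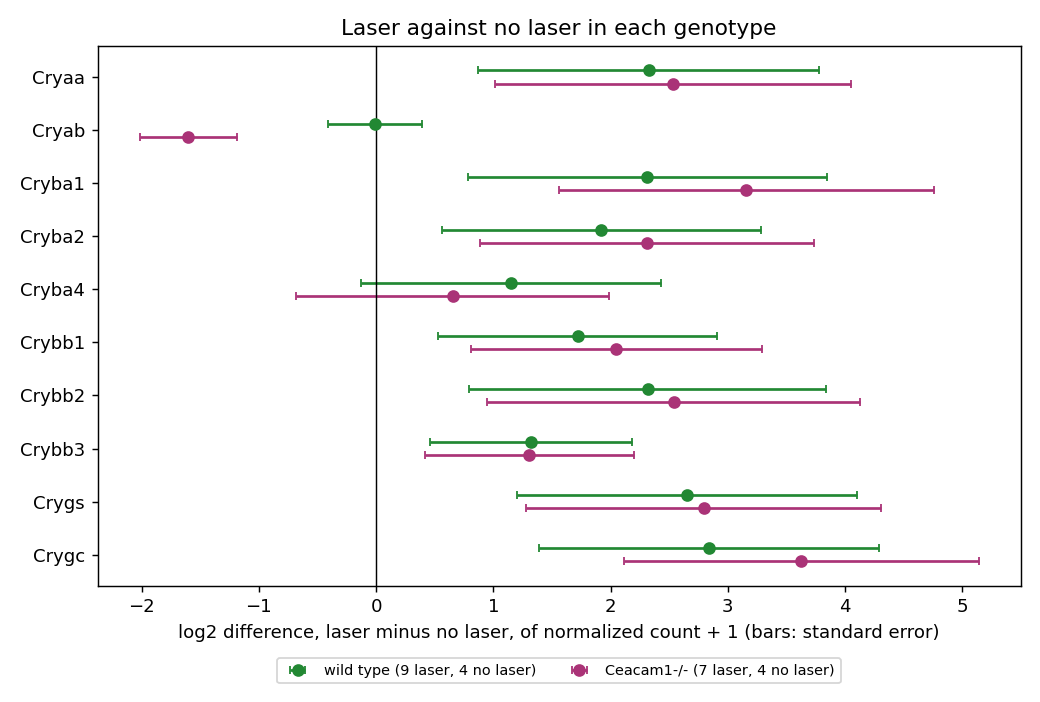
Difference in mean log2 of normalized count plus 1, laser minus no laser (horizontal axis, bars are standard errors), for each of the 10 crystallins in wild type (9 against 4 libraries) and in Ceacam1-/- (7 against 4). Apart from Cryab, which lies at -0.01 in wild type and at -1.60 in Ceacam1-/-, the points lie above 0 in both genotypes with long and overlapping bars.

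Cryab, the small heat shock α crystallin, followed another course. Without laser it held 16239, 30167, 21101 and 24614 normalized counts in wild type and 14708, 34048, 50790 and 25615 in Ceacam1-/- libraries. With laser, wild type libraries ranged from 11670 to 56819 with a median of 19479. Ceacam1-/- laser libraries 4, 5, 6, 7, 14, 15 and 18 held 11776, 11358, 17792, 11136, 4527, 8568 and 6110. Library 6 was the one Ceacam1-/- laser library above the lowest Ceacam1-/- library without laser, so these groups nearly separated. Cryab varied 12.6-fold over the 24 libraries, far less than the other members.

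Cryab fell with laser in Ceacam1-/- mice, by 1.60 on the log2 scale (SE 0.42, adjusted p = 0.0327; exact permutation p = 0.00606). It was the single member called of 10, against 3.72% of all genes called and 1.65% called lower. The call was lost without Ceacam1-/- library 14, 18, 24 or 25, where the adjusted p was 0.0537, 0.0503, 0.117 and 0.206. Libraries 14, 15 and 18, low in pigment epithelium and melanocyte markers, held the 3 lowest Cryab values, and without them the difference was -1.15 (adjusted p = 0.100). In wild type the difference was -0.01 (SE 0.40, adjusted p = 0.992). Averaged over genotypes it was -0.81 (SE 0.29, adjusted p = 0.0649), and it passed in 7 of 39 alternatives, namely with quantile normalization, array weights or a photoreceptor covariate and without library 1, 2, 6 or 23. With a skeletal muscle covariate it was -0.09 (adjusted p = 0.810). The interaction, which tests the difference between the 2 genotypes' laser effects, was -1.59 for Cryab (SE 0.58, adjusted p = 0.640), or -1.15 without libraries 14, 15 and 18 (adjusted p = 0.999), and no member passed it (0 of 10, against 0% of all genes; 1 of 10 at an unadjusted p under 0.05, against 6.22%). The laser effects of the 2 genotypes were therefore not shown to differ.

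Between genotypes with laser, no member passed the adjusted test (0 of 10, against 0.0202% of all genes), and Cryab alone had an unadjusted p under 0.05, against 22.7% of all genes. Cryab was lower in Ceacam1-/- by 1.25 on the log2 scale (log2 difference -1.25, SE 0.34, adjusted p = 0.112; exact permutation p = 0.00306), and 0 of 7 Ceacam1-/- libraries were above the wild type median. Without libraries 14, 15 and 18 it was -0.81 (adjusted p = 0.574). With a skeletal muscle covariate it was -0.59 (unadjusted p = 0.0831, adjusted p = 0.99996) and with a photoreceptor covariate -0.89 (adjusted p = 0.624). The summed skeletal muscle list had a median of 149398 in Ceacam1-/- and 453848 in wild type with laser. For the other 9 members exact permutation p-values lay between 0.478 and 0.997. The median log2 difference over the 10 members was 0.01, beside 0.01 over all genes, and rested on single libraries. It was 0.99 without library 18, where 9 of 10 members were higher and 6 had an unadjusted p under 0.05, and -0.47 without library 6. It was 1.05 without libraries 14, 15 and 18, where 7 had an unadjusted p under 0.05. The 22.7% of all genes is for the main fit, and the share in these fits is not given here. In the adjusted test 0 of 10 members passed without library 18, where 4 of 19656 genes did. Without libraries 14, 15 and 18 it was 0 of 10 members and 2 of 19316 genes.

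Crystallin genes outside the 10 split into those of the γ cluster and the rest. Among 19940 genes ranked by the correlation of their residuals with the mean of the 8 β and γ members over 24 libraries, the first were Crygb (r = 0.98), Crygd (0.98), Crygf (0.91), Lgsn (0.89), Cryga (0.88), Cryge (0.87) and Bfsp1 (0.84). Lgsn, or lengsin, and Bfsp1, or filensin, are proteins of lens fibre cells. Gvin4, Nhsl1 and Gpr39 came next with r of 0.75 each. Crygn and the distant relatives Crybg1, Crybg2 and Crybg3 did not share the pattern, with r between 0.01 and 0.31. Of the 9 other crystallins, 1 passed the test for laser averaged over genotypes, against 13.9% of all genes called and 7.69% called higher. This was Cryge, which rose by 3.20 on the log2 scale (SE 1.01, adjusted p = 0.0372). Without libraries 14, 15 and 18 it was 4.27 (adjusted p = 0.00130). The call of Cryge was lost in 15 of 38 alternatives (values 1.53 to 4.28, adjusted p up to 0.0885). It was listed at 0 in 5 of 8 libraries without laser and in 1 of 16 with laser, and 65.5% of its 31-base words also occurred in other genes.

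Other lens fibre genes were present at low levels. The 12 genes of the lens fibre list summed to 179.6 normalized counts in library 18 and 1927.1 in library 24, the same extremes as the crystallins, with a median of 589.3. Between these extremes the sums went apart: the median lens fibre sum was 580.7 without and 593.7 with laser, while that of the 9 crystallins was 388 and 5968. Libraries 25 and 26, with crystallin sums of 234 and 272, had lens fibre sums of 586.7 and 594.5. Bfsp2, which with Bfsp1 forms the beaded filament of lens fibres, was the most abundant, with 28.1 to 405 normalized counts. Mip, the water channel of lens fibre membranes and a defining marker, had a median of 8.03 and reached 162 in library 24 and 42.4 in library 22. In the laser libraries it was at most 18.03, although the crystallin sum of library 6 (33232) was above that of library 22 (19962). Lgsn and Grifin, a lens galectin relative, were by contrast higher in library 6 (247 and 112.9) than in library 22 (104 and 57.6). Of 8 lens fibre genes tested for laser averaged over genotypes, against 13.9% of all genes called, 1 was higher, Lgsn (2.51, SE 0.84, adjusted p = 0.0476), and none was lower; their median was -0.22. The call of Lgsn was lost in 24 of 39 alternatives, with values of 1.22 to 3.42 and adjusted p up to 0.171; it was kept without libraries 14, 15 and 18 (2.64, adjusted p = 0.0397). Among 10 tested genes of the lens regulator list 2 fell, against the same 13.9%, Pitx3 (-1.44, SE 0.38, adjusted p = 0.0128) and Hsf4 (-0.77, SE 0.18, adjusted p = 0.00543), transcription factors that lens development and fibre formation need. Both also fell within Ceacam1-/- (Pitx3 -2.16, SE 0.55, adjusted p = 0.0310, and Hsf4 -1.07, SE 0.26, adjusted p = 0.0232). No gene passed the interaction test, so their laser effects were not shown to differ between genotypes. In Ceacam1-/- alone Pitx3 lost its call in 10 of 26 alternatives and Hsf4 in 6 of 27. Without the Krt12-rich libraries both lost it with differences of -1.77 and -0.88 (adjusted p = 0.117 and 0.111). With a skeletal muscle covariate both lost it with differences of -1.51 and -0.70 (adjusted p = 0.232 and 0.216). Without libraries 14, 15 and 18 Pitx3 lost it there (-1.73, adjusted p = 0.0723) and Hsf4 barely kept it (-0.92, adjusted p = 0.04997), while both kept it averaged over genotypes (-1.23 and -0.70, adjusted p = 0.0270 and 0.0115). Pitx3 in Ceacam1-/- also lost it with a photoreceptor covariate (-1.85, adjusted p = 0.0569). With the muscle covariate both also lost it averaged over genotypes (-0.95 and -0.49, adjusted p = 0.134 and 0.0873). Averaged over genotypes Pitx3 also lost it without the Krt12-rich libraries (-1.18, adjusted p = 0.0730). Six3 was the most abundant regulator and did not pass (-0.38, SE 0.18, adjusted p = 0.180). Maf itself differed by 0.32 (SE 0.18, adjusted p = 0.266).

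The genes closest to Cryab by residual correlation over 24 libraries were Esd (r = 0.96), Mustn1 (0.96), Nutf2-ps1 (0.94), Sem1 (0.94), Nmrk2 (0.93), Psma6 (0.93), Hspb8 (0.92), Eny2 (0.92), Psmb1 (0.92) and Lmcd1 (0.92). Hspb2, the neighbour inside its span, had r = 0.91, Hspb1 0.84, Hspb6, a small heat shock gene, 0.63 and Acta1, the actin of skeletal muscle, 0.83. Of 6 small heat shock genes other than α crystallins, 1 fell with laser averaged over genotypes, against 13.9% of all genes called in either direction. This was Hspb6 (-1.46, SE 0.36, adjusted p = 0.00746). Its difference was -0.44 with a skeletal muscle covariate (adjusted p = 0.213) and -1.51 without libraries 14, 15 and 18 (adjusted p = 0.00826). In Ceacam1-/- alone 0 of the 6 passed, against 3.72% of all genes, and their median was -1.49. The skeletal muscle list of 14 genes, led by Atp2a1, the calcium pump of fast muscle, was also lower. Averaged over genotypes 10 of 14 fell with laser, against 13.9% of all genes called in either direction, with a median of -1.51. In Ceacam1-/- alone 0 of 14 passed, against 3.72% of all genes, with a median of -2.07. Its summed level was 494032 to 918648 in wild type and 86569 to 1564290 in Ceacam1-/- without laser, and 128703 to 548993 and 24007 to 352130 with laser. With the mean of the muscle list as a covariate, an alternative chosen after seeing the data, Cryab in Ceacam1-/- was -0.66 (adjusted p = 0.373). The muscle list was itself lower with laser, so this covariate cannot separate muscle content from laser. The part of muscle in the Cryab result was not tested.

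Marker lists of other tissues also varied between libraries, and their part in the crystallin values was not tested. The closing section gives fits with some lists as covariates. Krt12 was at 175232, 61194 and 178593 normalized counts in wild type library 22, Ceacam1-/- library 28 and Ceacam1-/- laser library 15, and at most 347 elsewhere. The surface epithelium list of 12 genes summed to 491718, 642697 and 663835 in these. It was also high in wild type laser library 19 (234036) and wild type library 27 (108131), which were not left out as rich in Krt12, and at most 22999 elsewhere. Crystallins were high in libraries 22, 15 and 19 and low in libraries 28 and 27. Ceacam1-/- library 24, with the highest crystallins, held 7.94 of Krt12. Of 16 photoreceptor genes, 0 passed for laser averaged over genotypes, against 13.9% of all genes, with a median of 0.40. The myeloid list, led by Lyz2, rose in 14 of 15 genes, against 7.69% of all genes called higher, with a median of 1.94. Pigment epithelium genes, led by Ttr, and melanocyte genes, led by Dct, were above 0 in every library, lowest in libraries 14, 15 and 18. For laser averaged over genotypes 0 of 10 and 0 of 8 passed, against the same 13.9% of all genes.

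**Figure D4:**
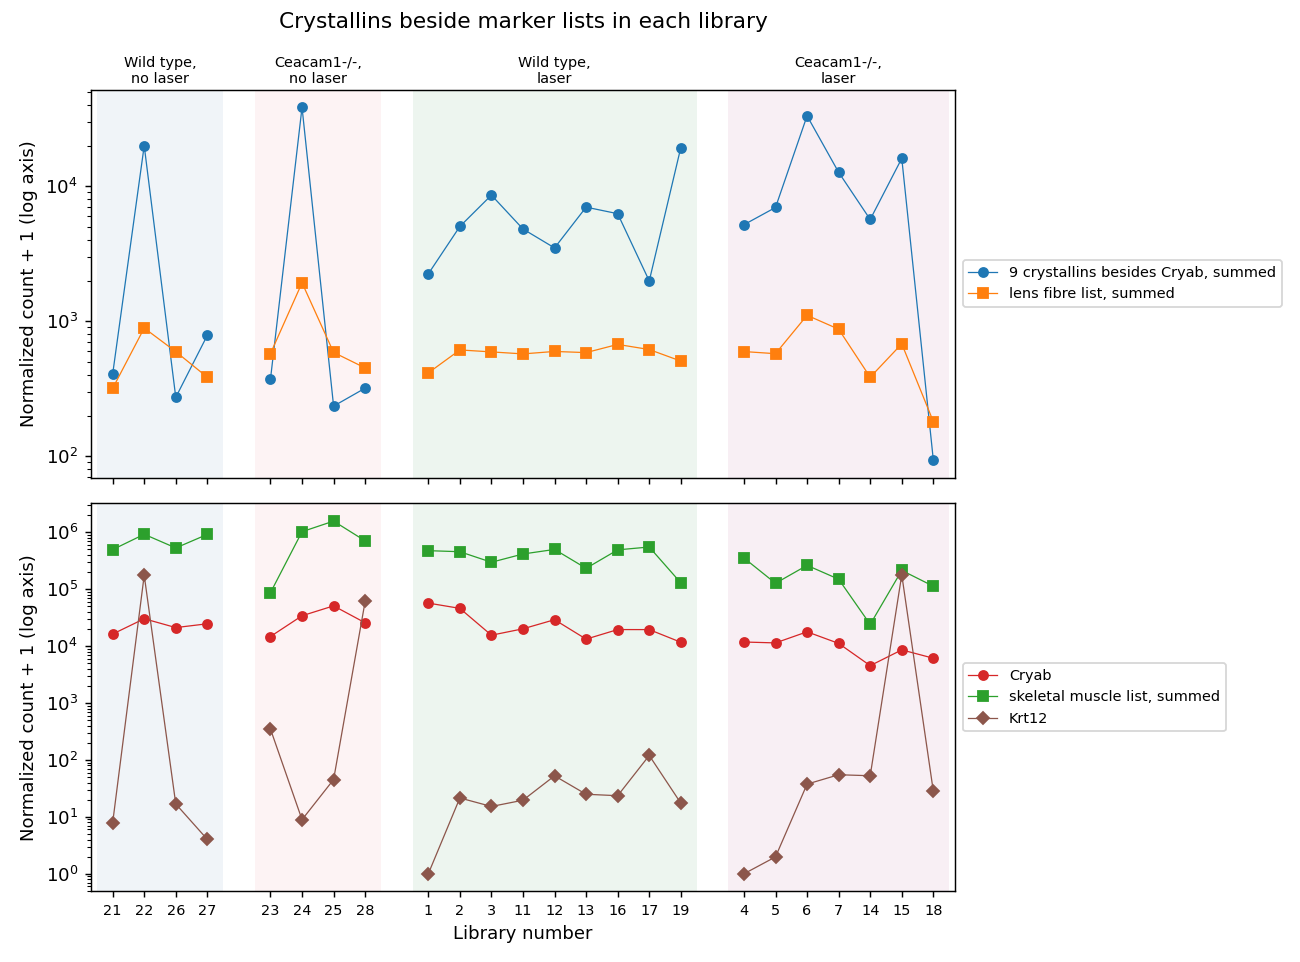
Top: summed normalized counts plus 1 (log axis) of the 9 crystallins other than Cryab and of the 12 lens fibre genes in each of 24 libraries. Bottom: the same scale for Cryab, the summed skeletal muscle list and Krt12. The lens fibre sum peaks in library 24 and is lowest in library 18, as for the crystallins, and lies between 317 and 1106 in the others, and Krt12 is high in libraries 22, 28 and 15.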

How the data were processed

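RNA of the choroid was sequenced in 24 SMART-Seq libraries, which fall into 4 groups by the genotype and laser given in the labels. The authors quantified reads with Salmon 1.10.3 against GRCm39 and deposited DESeq2 1.44.0 normalized values (unit: signal), that is, estimated counts divided by size and transcript length factors, for 56065 genes; versions are from the submitters' processing notes. Per the study's methods 1 outlier library was removed; which one is not given in the sources used here. Whole reads could not be recovered, as 35.9% to 77.3% of values up to 5 steps lay within 5% of a whole multiple of 1 step, so no count test was run. Totals per library limit the precision of low values, and no counting intervals were computed.

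Positions, transcript lengths and sequences came from GRCm39 and GENCODE vM39, which matched 99.1% of the identifiers. Groups were compared with limma 3.58.1 (R 4.3.3), with a variance trend, on log2 of the value plus 1, for genes with a mean of at least 10 normalized counts over the libraries of the fit. A fold change on this scale understates the change of low genes. P-values were adjusted by the Benjamini-Hochberg method over all genes tested, with a threshold of 0.05; the same steps were tested on simulated data. Genotype was fitted within the compared groups, and laser and its interaction with genotype in 1 model of 24 libraries. Exact permutation tests, two-sided, were added for each member and Ceacam1. The sex of the mice, a covariate of the study, is not in the labels; the summed Y-linked genes served as a covariate in an alternative. The members, the gene lists and the tests were chosen with earlier results of these data known. Named were the 10 members, Ceacam1, 9 other crystallins, for each list its most abundant gene and up to 4 called genes of lowest p, and the 10 genes most like each of 3 profiles by residual correlation; Mip, Grifin, Hspb1, Hspb2, Acta1, Krt12 and Maf were picked out after their values were seen. Some genes that these rules name are not reported here.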

Additional observations from a re-analysis of the deposited data

Results flagged for a closer look

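Of 40 member and group combinations, 29 held a library far from the others of its group by Dixon's criterion at 95%. For normally distributed values chance gives about 1 in 20. The values tested were linear and skewed, with a mean of 2050 and a median of 242 for Cryaa in wild type without laser. The rate of 1 in 20 is therefore no baseline for the 29, and the share of all genes flagged by this criterion is not given here. All 29 were the highest value of their group, and they came from 4 libraries, so they are not independent. In wild type library 22 without laser, 9 members stood apart: Cryaa (7643 normalized counts), Cryba1 (2693), Cryba2 (926), Cryba4 (754), Crybb1 (495), Crybb2 (3874), Crybb3 (683), Crygs (1798) and Crygc (1094). In Ceacam1-/- library 24 without laser the same 9 did: Cryaa (15726), Cryba1 (5685), Cryba2 (1553), Cryba4 (1082), Crybb1 (890), Crybb2 (7088), Crybb3 (927), Crygs (3672) and Crygc (1800). In wild type laser library 19, 8 members did: Cryaa (7886), Cryba1 (3803), Cryba2 (655), Crybb1 (546), Crybb2 (2776), Crybb3 (533), Crygs (2017) and Crygc (751). In Ceacam1-/- laser library 6, 3 members did: Cryba1 (6241), Crybb1 (1165) and Crybb3 (982). Cryab was far from the others in none of the 4 groups. Ceacam1-/- laser library 18, the lowest of its group for the summed crystallins, did not meet the criterion, which is set by the range of linear values.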

How the results depend on the processing

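The number of members called for laser averaged over genotypes, 1, became 0 with a pseudocount of 10, without a filter on low values and with a skeletal muscle covariate. With that covariate the Crygc difference was 3.69 (adjusted p = 0.0529), not smaller than in the main fit. The number became 2 with quantile normalization (2549 of 19950 genes called) and with a photoreceptor covariate (3907 genes), Cryab being the second in both. It became 3 with array weights (where 7084 of 19950 genes were called, against 2764), and 6 without Ceacam1-/- laser libraries 14, 15 and 18 (4829 of 19723 genes). Leaving out single libraries gave 0 to 8. In wild type it rose from 0 to 4 with array weights, where 6505 of 19950 genes were called, against 1053. In Ceacam1-/- the call of Cryab was lost (0 members) without a filter and in a fit of only the libraries compared. It was lost without the libraries rich in Krt12, where the difference stayed as large (-1.63, adjusted p = 0.0736). The call was also lost without libraries 14, 15 and 18 (-1.15, adjusted p = 0.100). The same held with a photoreceptor covariate (-1.22, adjusted p = 0.0586) or a skeletal muscle covariate (-0.66, adjusted p = 0.373). Leaving out single libraries gave 0 to 1 called members. These exclusions and covariates, and one for surface epithelium, were chosen after seeing the data. The Cryab difference for laser in wild type, -0.01, turned to 0.034 with upper-quartile scaling, 0.13 without the libraries rich in Krt12 and 0.48 with the muscle covariate, and ranged from -0.18 to 0.13 over single libraries left out. The cause was not tested. No alternative gave a called member between genotypes or in the interaction, and Cryaa, Crybb2, Crygs and Crygc stayed higher with laser in both genotypes under every alternative run, though in Ceacam1-/- Cryaa was 0.62 and Crybb2 0.51 with array weights. Without laser, array weights moved the median genotype difference of the members from -0.16 to 2.33, and that of the interaction moved from 0.21 to -1.81. Low values, such as those of Crygc and Mip, limit what can be said of the libraries at the bottom. No paired analysis was possible because the sources used here do not link the libraries to animals, eyes or litters.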
